A study of Rattus norvegicus with 9 samples.

Results

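Genes for the proteins of the cytosolic ribosome were read in CD68+ cells of male Wistar rats, where CD68 is a glycoprotein of monocytes and macrophages on which the cells had been selected with magnetic beads. The 3 groups, with 3 arrays each, were FBR cells, in vitro activated cells and blood cells. FBR cells were freshly isolated from the tissue of the foreign body reaction (FBR) that formed over 3 days on photo-oxidized bovine pericardium patches hung in steel cages in the peritoneal cavity. In vitro activated cells were blood CD68+ cells kept for 3 days on polytetrafluoroethylene (PTFE) coated with fibrinogen (FG). Blood CD68+ cells, taken without culture, were the controls. RNA was amplified in 2 rounds from its 3′ end and hybridised to Rat Genome 230 2.0 arrays. The number of rats behind each array is not given in the sources used here, so n counts arrays, and p-values measure the spread between these arrays.

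Members were the genes whose probe set carries a single symbol that starts with Rpl or Rps and a digit, or that is Rpsa or Rplp0, with the Rps6k kinases left out. Rplp1 and Rplp2, which the rule also admits, were not found under a single symbol. This rule found 50 of the 14218 genes with 1 symbol, 34 named for the large subunit and 16 for the small subunit. They were read from 57 probe sets, and where a gene had more than 1 the brightest on average was taken. A further 36 probe sets list several symbols with at least 1 ribosomal protein among them and were not read as any gene. All 50 members were tested, since no filter on low signals was applied, and 48 were measured on all 9 arrays. Rpl11 lacked a readable value on blood array 2 and Rpl18 on blood array 3. The reference annotates 2 members, Rpl37-ps2 and Rps4x-ps1, as pseudogenes.

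The cytosolic ribosome joins a small subunit, which decodes the mRNA, to a large subunit, which forms the peptide bond, and each subunit is a core of ribosomal RNA coated by proteins that most cells make at high and balanced rates. In vertebrates the mRNAs of these proteins characteristically begin with a C followed by a run of pyrimidines, the 5′ terminal oligopyrimidine (TOP) tract, through which mTOR and Larp1 set how actively they are translated. Control is thus largely on translation, which an array of RNA amounts does not measure. Assembly takes place in the nucleolus, where RNA polymerase I transcribes ribosomal RNA, and mitochondria have a separate ribosome with proteins of its own.

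The sequence around the annotated start was available for 43 members. A C followed by at least 5 pyrimidines on the strand with the sequence of the RNA, beginning within 5 bases of the start, was present in 21 of the 43 (48.8%), against 9.75% of the 27457 genes with a listed promoter. Another motif, the ETS-type sequence CCGGAAG on either strand, lay in the 300 bases from 250 before to 50 after the start of 10 of the 43 (23.3%), against 9.22% of all promoters. The sequences below, from RefSeq on GRCr8, run from 10 bases before the start through the first 20 transcribed bases, with the pyrimidine tract in capitals. The first 3 are examples with a tract from the members that were read from bright probe sets and not called in any comparison. Other such members, Rpl3 and Rps6 among them, had no tract. The next 7 are shown because their genes were called in at least 1 comparison. Rpl26l1, also called and without a tract, is not shown.
Rps23, chr2:23814507-23814536, plus strand: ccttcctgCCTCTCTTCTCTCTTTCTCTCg
Rpl19, chr10:83519054-83519083, plus strand: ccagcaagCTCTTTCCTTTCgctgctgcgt
Rplp0, chr12:46718371-46718400, minus strand: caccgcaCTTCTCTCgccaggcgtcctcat
Rpl14, chr8:129163610-129163639, plus strand: ggccctCTCCCTTCTCgctgagcgccgcca
Rps13, chr1:180009641-180009670, minus strand: ttcctacctcgttCTCTCTTTgcttccaga
Rpl28, chr1:78083513-78083542, minus strand: cccctagtgtCTTTCTTTCCgtctccggcc
Rps4y2, chr4:183000903-183000932, plus strand: cagctCTCCTCactcgcttgtgctctggga
Rpl24, chr11:58128386-58128415, minus strand: tagggaggagattctctaccctataaggtg
Rpl3l, chr10:14258436-14258465, plus strand: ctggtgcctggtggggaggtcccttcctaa
Rps27l, chr8:76443648-76443677, plus strand: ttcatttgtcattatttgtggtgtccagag
The tract ran over 21 bases in Rps23, 12 in Rpl19, 10 in Rpl14 and Rpl28, 8 in Rplp0 and Rps13 and 6 in Rps4y2, while Rpl24, Rpl3l and Rps27l had none within reach of the annotated start. Among all 43, called and uncalled genes were found both with and without a tract.

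Values are MAS5 signals, an intensity per probe set that the arrays' software scales to one trimmed mean, which lay between 498.9 and 501.5 on all 9 arrays. The median signal was 69.5 to 77.3 on FBR arrays, 87.0 to 110.1 on in vitro activated arrays and 97.3 to 102.8 on blood arrays. Cd68 itself had signals of 20075, 24802 and 20470 in FBR cells, 28965, 23892 and 38245 in in vitro activated cells, and 11741, 3524 and 8450 in blood cells. The B cell marker Ms4a1 had 32.7, 8.45 and 17.7 in FBR cells, 140, 185 and 717 in in vitro activated cells, and 12497, 15691 and 16481 in blood cells. All 7 measured B cell markers were called lower for FBR vs blood and for in vitro activated vs blood, and their summed signal was 1239 to 1767 in FBR, 595 to 2400 in in vitro activated and 39219 to 54614 in blood. Transcripts of B cell markers were thus read on the blood arrays in spite of the selection on CD68. Their part in the results below was not tested, and in bulk samples fewer cells of a type and less RNA per cell cannot be told apart.

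At the deposited scaling, most ribosomal protein genes were read at much the same signal in FBR, in vitro activated and blood CD68+ cells. The log2 fold change was under 0.5 in size for 40 of 50 members in FBR vs blood, 32 in in vitro activated vs blood and 34 in FBR vs in vitro activated. Of all genes this held for 42.6%, 45.0% and 45.8% in the same order. The counts were made at that scaling only. After median centring of the arrays the median log2 fold change of the members was 0.46, 0.05 and 0.48 in that order. It was -0.39, -0.25 and -0.10 after quantile normalization. Rps23, a protein of the decoding centre, had signals of 34914, 34346 and 31452 in FBR cells, 38600, 28413 and 35424 in in vitro activated cells, and 29063, 35241 and 34221 in blood cells. The 3 ranges overlap. The log2 fold change of Rps23 was 0.04 ± 0.23 (SE) for FBR vs blood, with a 95% interval of -0.47 to 0.54, and 0.05 ± 0.23 for in vitro activated vs blood, with an interval of -0.45 to 0.55. Both subunits held such members, with 27 of the 34 large subunit members and 13 of the 16 small subunit members under 0.5 in size for FBR vs blood, 22 and 10 for in vitro activated vs blood, and 22 and 12 for FBR vs in vitro activated.

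Fold changes came from a limma fit of log2(signal + 16) over all 9 arrays, and a gene was called where the p-value, adjusted by Benjamini-Hochberg over 31099 probe sets, was under 0.05. For FBR vs blood 1 member was called higher and 3 lower, 4 of 50 members, while 33.8% of all genes were called (14.6% higher and 19.2% lower). For in vitro activated vs blood 2 members were called higher and 4 lower, 6 of 50 members, against 27.5% of all genes (15.4% higher and 12.2% lower). For FBR vs in vitro activated 4 members were called higher and 2 lower, 6 of 50 members, against 25.6% of all genes (8.88% higher and 16.7% lower). The balance of directions depended on the scaling. After median centring of the arrays 6 were higher and 1 lower for FBR vs blood (all genes 22.4% and 11.8%). At that scaling 10 were higher and 0 lower for FBR vs in vitro activated (all genes 14.1% and 8.67%). After quantile normalization 1 was higher and 7 lower for FBR vs blood (all genes 17.4% and 14.8%). It gave 2 higher and 11 lower for in vitro activated vs blood (all genes 16.7% and 11.8%). The comparisons share arrays, and so their counts are not independent of each other.

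A gene that was not called may still differ, so the intervals are the better guide to how far the members could have moved. The 95% interval lay within 1 log2 unit of 0 for 31 of the 50 members in FBR vs blood, against 23.8% of all genes. For in vitro activated vs blood it did so for 31 members, against 25.7% of all genes, and for FBR vs in vitro activated for 30 members, against 25.5%. Arrays of the 2 groups did not overlap for 8 of 48 members in FBR vs blood (51.7% of all genes), for 12 of 48 in in vitro activated vs blood (43.0%) and for 12 of 50 in FBR vs in vitro activated (46.3%).

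**Figure D1:**
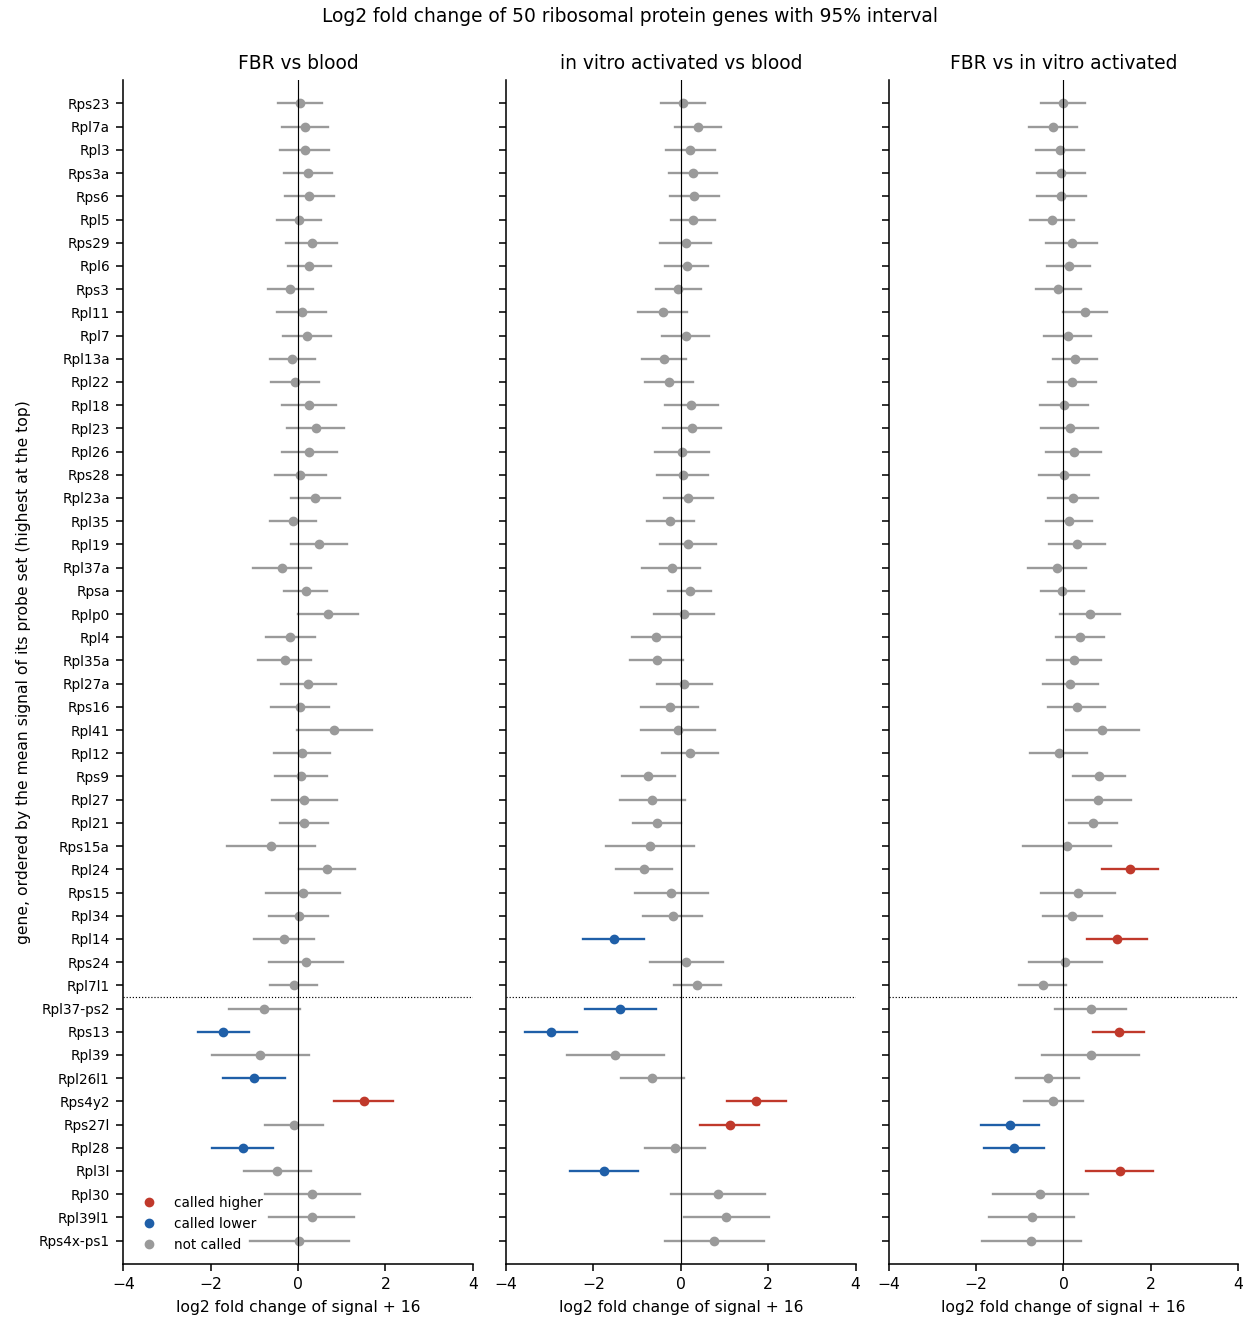
Log2 fold change of the signal plus 16 (x axis) with its 95% interval for each of the 50 members (y axis, ordered by the mean signal of the probe set), in FBR vs blood, in vitro activated vs blood and FBR vs in vitro activated. Above the dotted line, at a mean signal of 1000, 39 members cluster around 0 with 0, 1 and 2 called in the 3 panels, and below it 11 members spread more widely with 4, 5 and 4 called.

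Few of the called members were read from a bright probe set. The brightness of a probe set depends on its probes as well as on the RNA, so it ranks no gene above another, but it does set how well a change can be read. Of the 39 members with a mean signal of at least 1000, 0 were called for FBR vs blood, 1 for in vitro activated vs blood and 2 for FBR vs in vitro activated, while 48.3%, 42.1% and 35.8% of the 3851 genes of that brightness were called in the same comparisons. At an unadjusted p under 0.05 the counts were 1, 5 and 6. The share of all genes under that limit was not counted, here or for the lists below. In a fit of only the probe sets of that brightness 1, 5 and 5 were called, against 58.7%, 54.9% and 47.8% of all genes in it. The widest 95% interval among the 39 reached 1.01 log2 units to either side of its estimate, the median one 0.58. Their log2 fold changes ran from -0.62 to 0.83 for FBR vs blood, from -1.54 to 0.39 for in vitro activated vs blood and from -0.48 to 1.52 for FBR vs in vitro activated. Of the 11 members under a mean signal of 1000, 4, 5 and 4 were called in the same 3 comparisons, while 28.4%, 22.1% and 21.8% of the 10367 genes of that brightness were. The difference from those shares was not tested.

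The median log2 fold change of the 50 members was 0.09 for FBR vs blood (0.46 after median centring and -0.39 after quantile normalization), where all genes had a median of -0.09, 0.27 and 0.07 under the same 3 scalings. For in vitro activated vs blood it was 0.03 (0.05 after median centring and -0.25 after quantile normalization), against 0.13, 0.15 and 0.13 for all genes. For FBR vs in vitro activated it was 0.13 (0.48 and -0.10), against -0.23, 0.11 and -0.07. No direction is therefore given for the family as a whole. The summed signal of the 48 members measured on all arrays took 4.28% ± 0.48 (SD, n = 3) of the signal of all genes in the FBR group, 4.07% ± 0.51 in the in vitro activated group and 4.82% ± 0.46 in the blood group.

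Of the bright members 2 were called in the fit of all probe sets, Rpl14 and Rpl24, both for FBR vs in vitro activated. Rpl14, a large subunit protein, had signals of 10890, 8626 and 7080 in FBR cells, 3775, 2516 and 5413 in in vitro activated cells, and 9990, 10361 and 12432 in blood cells. Every in vitro activated array lay below every array of the other groups, and FBR and blood arrays overlapped. Rpl14 fell by 1.54 ± 0.31 on the log2 scale in in vitro activated vs blood (adjusted p = 0.0051), a fold of 0.343, and was higher by 1.23 ± 0.31 in FBR vs in vitro activated (adjusted p = 0.018). The difference of -0.32 for FBR vs blood was not called (adjusted p = 0.5, interval -1.01 to 0.37). Without FBR 1, FBR 2 or in vitro activated 2 the FBR vs in vitro activated call was lost, and with the mean of its probe sets, the other of which had a mean signal of 27.1, both calls were lost.

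Rpl24, a large subunit protein at the bridge between the subunits, had signals of 14823, 14965 and 12946 in FBR cells, 5017, 4153 and 5791 in in vitro activated cells, and 10501, 5985 and 11386 in blood cells. The 3 groups did not overlap, with FBR highest and in vitro activated lowest, although blood 2 stood only just above the in vitro activated arrays. Rpl24 was higher by 1.52 ± 0.29 in FBR vs in vitro activated (adjusted p = 0.0045), a fold of 2.87, and this call held in all 22 alternative analyses. It was not called against blood, with 0.67 ± 0.29 for FBR vs blood (adjusted p = 0.11) and -0.85 ± 0.29 for in vitro activated vs blood (adjusted p = 0.055). The difference for in vitro activated vs blood was called in 8 alternative analyses, among them the one without blood 2. That for FBR vs blood was called in 2, median centring and the fit of probe sets with a mean signal of at least 1000.

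Rps13 of the small subunit showed the widest change among the members and was read from a dim probe set. Its signals were 328, 305 and 282 in FBR cells, 133, 117 and 105 in in vitro activated cells, and 894, 1469 and 840 in blood cells. The groups were fully apart, blood highest and in vitro activated lowest. Rps13 fell by 1.71 ± 0.26 in FBR vs blood (adjusted p = 0.00079) and fell by 2.97 ± 0.26 in in vitro activated vs blood (adjusted p = 5.8e-05), and was higher by 1.26 ± 0.26 in FBR vs in vitro activated (adjusted p = 0.0074). All 3 calls held in 21 of 21 alternative analyses. A brighter probe set that lists Rps13 together with Rps13-ps2, Rps13-ps10 and Rps13l1 (mean signal 18894 in FBR, 15059 in in vitro activated and 15101 in blood cells) moved by 0.34, -0.01 and 0.35 in the same comparisons and was not called. The 2 probe sets thus disagree, and which RNA the dim one reads was not tested.

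Rpl28, of the large subunit, was likewise read from a dim probe set, with signals of 49.4, 50.2 and 63.1 in FBR cells, 181, 174 and 81.9 in in vitro activated cells, and 147, 196 and 124 in blood cells. All FBR arrays lay below all others. Rpl28 fell by 1.27 ± 0.31 in FBR vs blood (adjusted p = 0.011) and fell by 1.14 ± 0.31 in FBR vs in vitro activated (adjusted p = 0.026). A probe set that lists Rpl28 with LOC100362069 and RGD1565183 had mean signals of 18708 in FBR, 16643 in in vitro activated and 17399 in blood cells, and at 0.11 and 0.18 it was not called. The call for FBR vs in vitro activated was lost without any 1 of FBR 1, FBR 2, FBR 3, in vitro activated 1 or in vitro activated 2, and both calls were lost after median centring and after quantile normalization.

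The paralogs, second genes whose protein resembles a core ribosomal protein, moved in different directions. Rps4y2, which encodes a form of the small subunit protein S4, had signals of 284, 206 and 154 in FBR cells, 234, 280 and 233 in in vitro activated cells, and 73.5, 39.7 and 84.4 in blood cells. Every blood array lay below every other array. Rps4y2 rose by 1.50 ± 0.30 in FBR vs blood (adjusted p = 0.0037) and by 1.73 ± 0.30 in in vitro activated vs blood (adjusted p = 0.0023), and both calls held in 21 of 21 alternative analyses. It was the 1 member called higher against blood in both groups.

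Rps27l, a copy of Rps27 known in human cells as a p53 target, had signals of 115, 101 and 65.1 in FBR cells, 257, 169 and 292 in in vitro activated cells, and 91.6, 131 and 79.5 in blood cells. The in vitro activated arrays lay above all others, and FBR and blood overlapped. Rps27l rose by 1.12 ± 0.30 in in vitro activated vs blood (adjusted p = 0.021) and fell by 1.22 ± 0.30 in FBR vs in vitro activated (adjusted p = 0.016). The first call was lost without blood 1, blood 3, in vitro activated 1 or in vitro activated 3 and without restored values, and the second without FBR 3 and after median centring.

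Rpl3l, the paralog that takes the place of Rpl3 in heart and skeletal muscle, had signals of 65.8, 51.4 and 73.3 in FBR cells, 12.8, 8.48 and 32.3 in in vitro activated cells, and 118, 54.1 and 126 in blood cells. The in vitro activated arrays were lowest throughout, and blood 2 lay among the FBR arrays. Rpl3l fell by 1.76 ± 0.35 in in vitro activated vs blood (adjusted p = 0.0047) and was higher by 1.29 ± 0.35 in FBR vs in vitro activated (adjusted p = 0.025), the second call being lost without any 1 FBR array and without in vitro activated 1 or 2, and without restored values. Rpl3 itself did not pass the test in any comparison, at 0.15, 0.22 and -0.07 for FBR vs blood, in vitro activated vs blood and FBR vs in vitro activated.

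Rpl26l1, a copy of Rpl26, had signals of 196, 168 and 130 in FBR cells, 323, 230 and 129 in in vitro activated cells, and 345, 382 and 306 in blood cells. FBR arrays lay below blood arrays, and in vitro activated arrays spanned both. Rpl26l1 fell by 1.01 ± 0.32 in FBR vs blood (adjusted p = 0.036), a call that was lost on leaving out any 1 FBR or blood array and in 10 of 22 alternative analyses in all. Rpl7l1, a copy of Rpl7 that belongs to large subunit assembly, was read by 2 probe sets and not called, with a mean signal of 1615 ± 75.6 in FBR, 2262 ± 144 in in vitro activated and 1770 ± 407 in blood cells (SD, n = 3 each).

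Rpl37-ps2, annotated as a pseudogene, had signals of 877, 624 and 641 in FBR cells, 363, 784 and 324 in in vitro activated cells, and 1248, 1626 and 878 in blood cells. Blood arrays were highest, although blood 3 and FBR 1 were nearly equal. Rpl37-ps2 fell by 1.39 ± 0.37 in in vitro activated vs blood (adjusted p = 0.019) and was not called for FBR vs blood at -0.77 (adjusted p = 0.15). The call was lost without blood 1, blood 2, in vitro activated 1 or in vitro activated 3, and with array weights. The other pseudogene, Rps4x-ps1, and Rpl30 and Rpl39l1 had mean signals of 19, 28.9 and 24.6 and were not called. A probe set that lists Rpl30 with its copies had mean signals of 27850 in FBR, 20605 in in vitro activated and 23602 in blood cells. It was not called either. Rpl39 at 456 was not called at -0.87 for FBR vs blood and -1.50 for in vitro activated vs blood (adjusted p = 0.23 and 0.053). The difference of Rpl39 for in vitro activated vs blood was called in 8 alternative analyses.

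**Figure D2:**
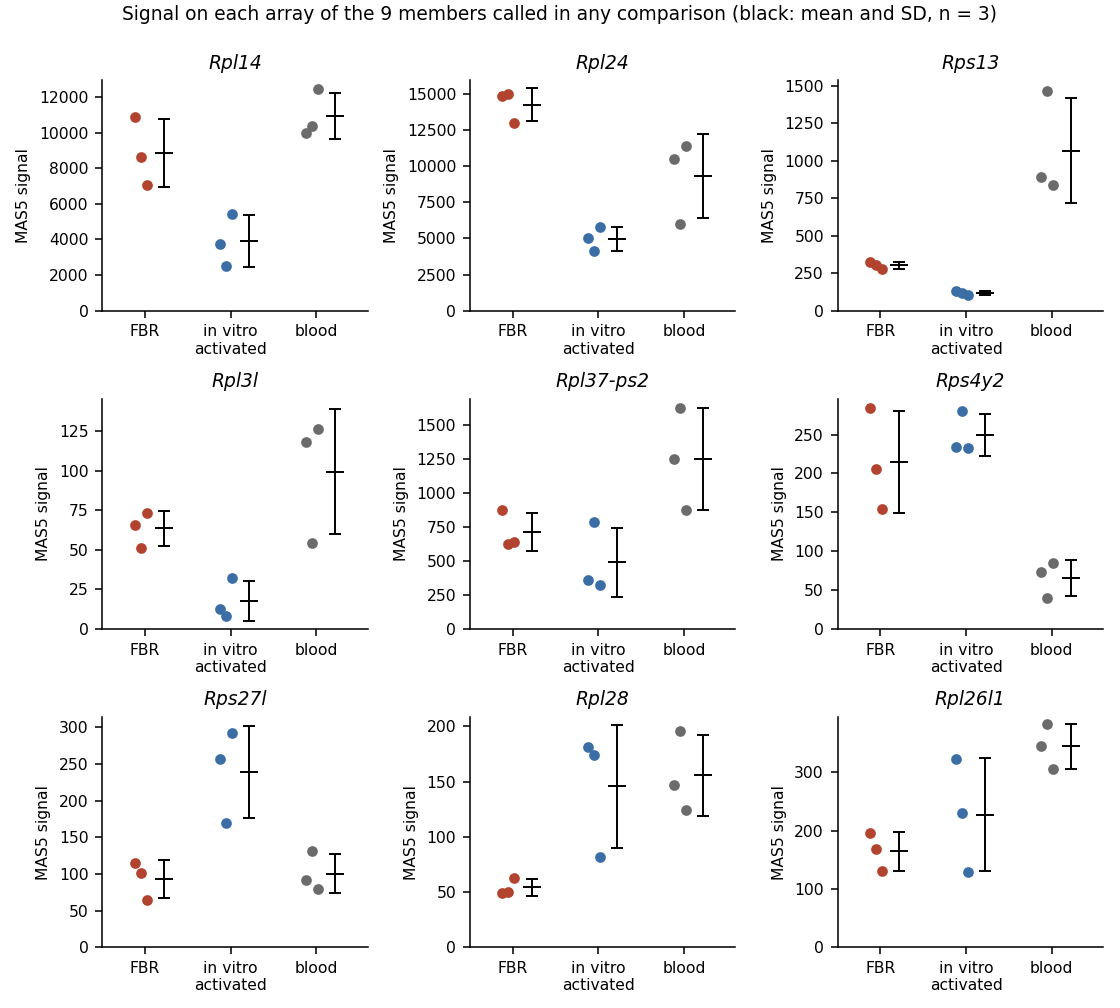
MAS5 signal (y axis, linear and starting at 0) on each array of FBR, in vitro activated and blood CD68+ cells for the 9 members called in at least 1 comparison, with the mean and SD of 3 arrays in black. In vitro activated arrays are lowest for Rpl14, Rpl24, Rps13 and Rpl3l and highest for Rps27l, FBR arrays are lowest for Rpl28, and blood arrays are lowest for Rps4y2.

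The members taken up next for a known part beyond the frame of the ribosome were not called in any comparison of the limma fit described above. Rplp0, which anchors the stalk that recruits elongation factors, had signals of 23505, 25692 and 18097 in FBR cells, 15556, 10979 and 18094 in in vitro activated cells, and 15753, 9537 and 17680 in blood cells. FBR arrays lay above both other groups, yet FBR 3 and in vitro activated 3 were nearly equal, and the differences of 0.68 for FBR vs blood and 0.61 for FBR vs in vitro activated were not called (adjusted p = 0.13 and 0.19). Both differences were called after median centring. Rplp0 is often used as a constant control gene in PCR. Rpl5 and Rpl11, which bind 5S ribosomal RNA and can also bind Mdm2, were at 0.02 and 0.08 for FBR vs blood and 0.29 and -0.41 for in vitro activated vs blood, with no call. The difference of Rpl11 for FBR vs in vitro activated, 0.49, was called in 3 alternative analyses.

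Rps3, which also binds the p65 subunit of NF-kB, was at -0.18 for FBR vs blood and -0.06 for in vitro activated vs blood. In the same comparisons Rpsa, the laminin receptor precursor, was at 0.17 and 0.20, and Rpl13a, which leaves the ribosome in interferon-treated human monocytes, at -0.13 and -0.39. Rps6, the substrate of S6 kinase, was at 0.26 for FBR vs blood and 0.31 for in vitro activated vs blood. None of these passed the test. After quantile normalization Rps3 was called for FBR vs blood and Rpl13a for both comparisons with blood. The other bright members named by their signal were Rpl7a (0.15 for FBR vs blood and 0.39 for in vitro activated vs blood) and Rps3a (0.23 and 0.29), and those at the upper end for FBR vs blood were Rpl41 (0.83, adjusted p = 0.13) and Rpl19 (0.47, adjusted p = 0.25). Rpl41 and Rpl19 were both called for FBR vs blood after median centring.

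Bright members tended to be low on the same array of a group. Among the 37 members with a mean signal of at least 1000 and a value on all arrays, FBR 3 gave the lowest of the 3 FBR values for 36, or 97.3%, while it did so for 37.0% of the 3353 genes of that brightness. In vitro activated 2 gave the lowest value of its group for 34 members (91.9%, against 31.5% of genes). Blood 3 was lowest for 0 members, and blood 2 for 24 (64.9%, against 55.0% of genes). The 1 member that was not lowest on FBR 3 was Rpl7l1, and those not lowest on in vitro activated 2 were Rpl7l1, Rpl22 and Rpl4, of which Rpl22 and Rpl4 are named after their values were seen.

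The steps were small. Bright members lay at a median of -0.38 log2 units on FBR 3 relative to the mean of the other 2 FBR arrays, against -0.03 for all genes of that brightness. On in vitro activated 2 the median was -0.43, against 0.00 for all genes, and on blood 2 it was -0.25 against -0.20. The median SD within groups was 0.27 log2 units for the members (0.14 to 0.65) and 0.30 for all bright genes. As one array carried most members down together, members are not independent readings of a group. The ratio of the 3′ to the 5′ actin probe set, a measure of how far amplified RNA reaches, was 14.6, 11.2 and 7.80 on the FBR arrays, 26.6, 19.2 and 14.6 on the in vitro activated arrays, and 9.87, 16.8 and 11.6 on the blood arrays. The ratio for Gapdh was 1.99, 1.94 and 1.74 on the FBR arrays, 3.57, 3.71 and 3.17 on the in vitro activated arrays, and 2.95, 2.95 and 3.16 on the blood arrays. The array where members were lowest was thus the one with the smallest actin ratio among FBR arrays, the middle one among in vitro activated arrays and the one with the largest among blood arrays, and the part of RNA quality in the members' values was not tested.

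**Figure D3:**
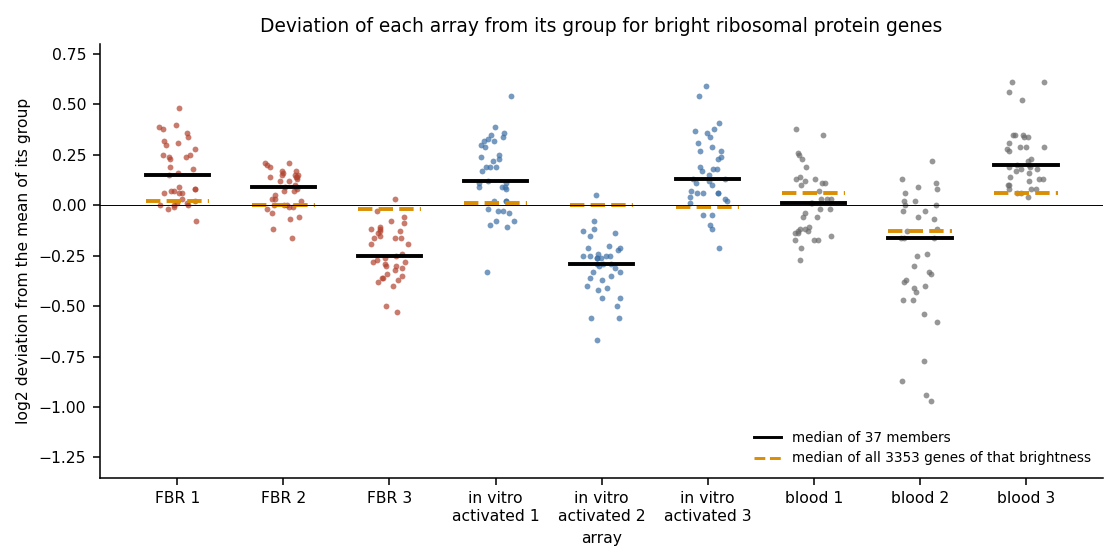
Log2 deviation of each array from the mean of its group (y axis) for 37 bright members, 1 point per gene, with the median of the members as a solid line and that of the 3353 genes with a mean signal of at least 1000 as a dashed line. FBR 3, in vitro activated 2 and blood 2 carry the members' lowest medians of their groups, at -0.25, -0.29 and -0.16.

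Genes that work with ribosomal proteins were read beside them. Of the 15 measured translation factors and other products of TOP mRNAs, 0 were higher and 1 lower for FBR vs blood, 0 were higher and 3 lower for in vitro activated vs blood, and 2 were higher and 0 lower for FBR vs in vitro activated. At an unadjusted p under 0.05 the counts were 0 and 2, 0 and 5, and 3 and 0. The 1, 3 and 2 calls lay below the 33.8%, 27.5% and 25.6% called of all genes. Hnrnpa1, an RNA-binding protein of splicing, had signals of 5071, 5818 and 5171 in FBR cells, 1857, 2480 and 2116 in in vitro activated cells, and 6607, 9882 and 7417 in blood cells. In vitro activated cells were lowest without overlap. Hnrnpa1 fell by 1.87 ± 0.24 in in vitro activated vs blood (adjusted p = 0.00044) and was higher by 1.32 ± 0.24 in FBR vs in vitro activated (adjusted p = 0.004). Eif4a2, an RNA helicase of initiation, fell by 1.01 in FBR vs blood and fell by 1.47 in in vitro activated vs blood (adjusted p = 0.028 and 0.0059).

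Genes of ribosome biogenesis that were called in FBR cells were mostly lower there. Of the 56 measured, 1 was higher and 24 lower for FBR vs blood (all genes 14.6% higher and 19.2% lower), with a median log2 fold change of -0.63, and 2 were higher and 31 lower for FBR vs in vitro activated (all genes 8.88% and 16.7%), with a median of -0.92. For in vitro activated vs blood 7 were higher and 0 lower, against 15.4% and 12.2% of all genes, with a median of 0.27 (11 and 5 at an unadjusted p under 0.05). The direction in FBR kept under other scalings. For FBR vs blood 13 were lower and 2 higher after median centring (median -0.27), against 11.8% and 22.4% of all genes. After quantile normalization 17 were lower and 1 higher (median -0.42), against 14.8% and 17.4%. For FBR vs in vitro activated 16 were lower and 3 higher after median centring (all genes 8.67% and 14.1%). After quantile normalization 25 were lower and 2 higher (all genes 12.6% and 10.2%).

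Polr1a, the largest subunit of RNA polymerase I, had signals of 225, 120 and 184 in FBR cells, 1287, 1178 and 1555 in in vitro activated cells, and 535, 713 and 510 in blood cells. The groups were fully apart. Polr1a fell by 1.67 ± 0.28 in FBR vs blood (adjusted p = 0.0012), rose by 1.18 ± 0.28 in in vitro activated vs blood (adjusted p = 0.012) and fell by 2.85 ± 0.28 in FBR vs in vitro activated (adjusted p = 0.00014). Polr1b, the second largest subunit, and Rrs1, a factor of large subunit assembly, had log2 fold changes of -2.35 and -2.33 in FBR vs blood (adjusted p = 0.0006 and 0.0019). Polr1e, another RNA polymerase I subunit, went the other way, with signals of 1293, 2916 and 2372 in FBR cells, 375, 363 and 213 in in vitro activated cells, and 506, 852 and 670 in blood cells, and a rise of 1.63 in FBR vs blood (adjusted p = 0.0062). Sbds, which helps release a maturation factor from the large subunit, was higher by 0.86 in FBR vs in vitro activated (adjusted p = 0.021), and Ebna1bp2, a nucleolar assembly factor, rose by 1.38 in in vitro activated vs blood (adjusted p = 0.014). Ebna1bp2 had a readable value on only 2 arrays of each of these groups, 2960 and 3169 in in vitro activated and 1391 and 979 in blood cells.

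Of the 73 measured genes for proteins of the mitochondrial ribosome, 16 were higher and 0 lower for in vitro activated vs blood (median 0.57). Of all genes 15.4% and 12.2% were. For FBR vs in vitro activated 0 were higher and 30 lower (median -0.65), against 8.88% and 16.7% of all genes. After median centring the second pair of counts was 1 and 15, against 14.1% and 8.67% of all genes. At an unadjusted p under 0.05 the counts were 33 and 0, and 1 and 39. For FBR vs blood 5 were higher and 14 lower (all genes 14.6% and 19.2%). The median of -0.23, however, changed sign to 0.14 after median centring and to 0.02 after quantile normalization. After median centring 9 were higher and 2 lower for FBR vs blood (all genes 22.4% and 11.8%). Mrpl12 had signals of 950, 717 and 612 in FBR cells, 2806, 2491 and 2583 in in vitro activated cells, and 740, 480 and 849 in blood cells. In vitro activated cells stood above both other groups, which overlapped. Mrpl12 rose by 1.94 ± 0.28 in in vitro activated vs blood (adjusted p = 0.00077). Mrpl51 and Mrpl40 had log2 fold changes of -2.07 and -1.99 in FBR vs in vitro activated (adjusted p = 0.00025 and 0.00069).

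**Figure D4:**
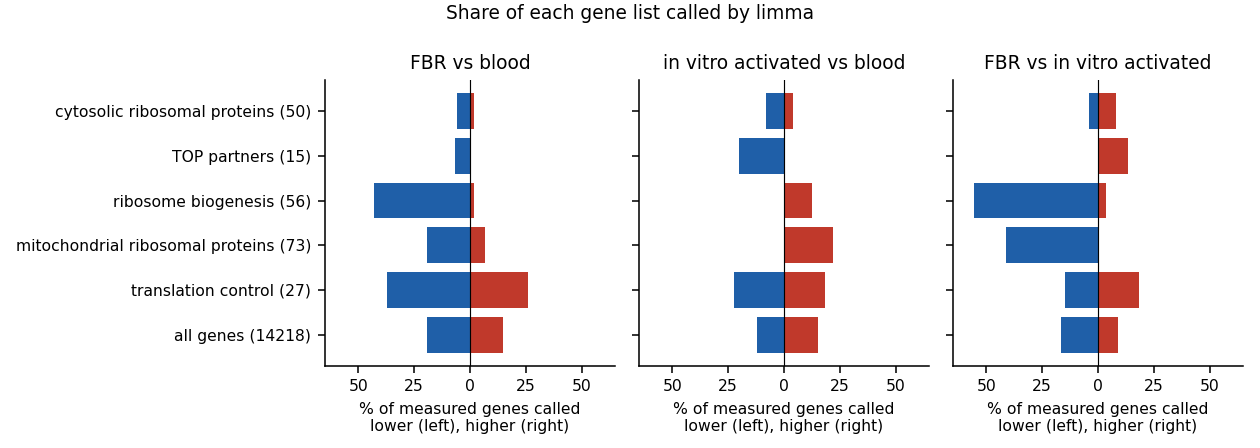
Percentage of measured genes called lower (left of 0) and higher (right of 0) by limma in each list, with the number measured in brackets, for FBR vs blood, in vitro activated vs blood and FBR vs in vitro activated. Ribosome biogenesis has 24 of 56 lower for FBR vs blood and mitochondrial ribosomal proteins 30 of 73 lower for FBR vs in vitro activated, while cytosolic ribosomal proteins have 3 and 2 of 50 lower.

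Among the 27 measured genes that control translation, 7 were higher and 10 lower for FBR vs blood (all genes 14.6% and 19.2%), 5 higher and 6 lower for in vitro activated vs blood (15.4% and 12.2%), and 5 higher and 4 lower for FBR vs in vitro activated (8.88% and 16.7%). Eif4ebp1, the repressor of the cap-binding protein that mTOR inactivates, had signals of 3512 and 2669 on the 2 FBR arrays with a readable value, 774, 513 and 978 in in vitro activated cells, and 979, 299 and 805 in blood cells. FBR values lay above all others. Eif4ebp1 rose by 2.27 ± 0.49 in FBR vs blood (adjusted p = 0.0068) and was higher by 2.04 in FBR vs in vitro activated (adjusted p = 0.017). Pdcd4, which blocks the initiation helicase, fell by 1.60 in FBR vs in vitro activated (adjusted p = 0.0027).

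Ddit4, an inhibitor of mTOR, fell by 4.45 in in vitro activated vs blood (adjusted p = 3.2e-05) and was higher by 2.84 in FBR vs in vitro activated (adjusted p = 0.0005). Eif2ak4, the kinase that senses amino acid shortage, fell by 3.25 in FBR vs blood and fell by 3.09 in in vitro activated vs blood (adjusted p = 4.2e-05 and 8.6e-05). Of the sestrins, Sesn1 fell by 2.97 and Sesn2 rose by 1.58 in FBR vs blood (adjusted p = 0.00054 and 0.0027).

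Markers of other cells moved with the groups. T cell markers were lower for 7 of 9 in FBR vs blood and in in vitro activated vs blood, with summed signals of 519 to 589 in FBR, 447 to 747 in in vitro activated and 2329 to 3467 in blood. NK cell markers were lower for 6 of 8 and 5 of 8 (267 to 395 in FBR, 314 to 337 in in vitro activated and 2648 to 7937 in blood). Of the 7 neutrophil markers 0 were called for FBR vs blood (1 at an unadjusted p under 0.05) and 1 was lower for in vitro activated vs blood (2317 to 3085 in FBR, 245 to 780 in in vitro activated and 608 to 2256 in blood). For FBR vs in vitro activated 3 of the 7 were higher, S100a9 by 4.38, S100a8 by 2.77 and Csf3r by 1.90 on the log2 scale (adjusted p = 0.0027, 0.042 and 0.031). Platelet and red cell markers were higher for 1 and lower for 4 of 6 in FBR vs blood and lower for 3 in in vitro activated vs blood (14273 to 21350 in FBR, 3849 to 8087 in in vitro activated and 6926 to 14995 in blood). Nearly all of this sum in FBR was Pf4, a platelet chemokine, which was the 1 called higher for FBR vs blood and for FBR vs in vitro activated, and without it the sums were 234 to 286 in FBR, 61 to 501 in in vitro activated and 1211 to 11048 in blood. Fibroblast and mesothelial markers were higher for 5 of 10 and 2 of 10 (816 to 2016 in FBR, 466 to 1008 in in vitro activated and 304 to 362 in blood), and macrophage markers for 6 of 8 and 2 of 8 (83490 to 102973 in FBR, 71166 to 108088 in in vitro activated and 31513 to 58431 in blood). For FBR vs in vitro activated B cell markers were higher for 1 and lower for 3 of 7, T cell markers were lower for 2 of 9, and NK cell, fibroblast and mesothelial, and macrophage markers had 0 called (0, 3 and 2 at an unadjusted p under 0.05). No marker had a signal of exactly 0, and the part of these cells in the members' values was not tested.

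Members with and without a pyrimidine tract at the annotated start were counted apart. Of the 21 with a tract, 1 was higher and 2 lower for FBR vs blood, 1 higher and 2 lower for in vitro activated vs blood, and 2 higher and 1 lower for FBR vs in vitro activated, with medians of 0.05, -0.13 and 0.15. Of the 22 without, the counts were 0 and 1, 1 and 1, and 2 and 1, with medians of 0.11, -0.02 and 0.04. Both sets lay below the 33.8%, 27.5% and 25.6% of all genes called in these comparisons. The difference between these 2 sets was not tested.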

How the data were processed

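Each of 31099 probe sets has a MAS5 signal on 9 arrays, which the authors deposited as a linear intensity scaled per array. The authors' tables of log2 fold changes and adjusted p-values were not used. Of the deposited values, 15.45% of 279891 were read as signals without their decimal point and 0.07% as dates, and both were restored. The 1.04% with more than 1 reading were left missing, on 8.95% of probe sets.

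Signals were fitted as log2(signal + 16) with limma 3.58.1 (R 4.3.3, lmFit and eBayes, 1 mean per group, 6 residual degrees of freedom), with Benjamini-Hochberg adjustment over all probe sets and a threshold of 0.05. The script was tested on simulated data. Symbols came from the platform annotation, and 48 of 50 members matched RefSeq by Entrez ID. The number of arrays limits the precision.

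The genes named are the 5 highest and 5 lowest members of each comparison among those measured on all arrays, the 5 with the highest mean signal, members with a known special role, and of the other lists the 2 highest and 2 lowest called genes of each comparison, in part, with defining markers. The members and lists were chosen with earlier results of these data known. Alternatives were pseudocounts of 1 and 64, mean signal filters of 100 and 1000, quantile normalization, median centring, a replicate block, eBayes with trend and robust, a fit of only the compared groups, array weights, leaving out each array, the mean of all probe sets, only specific probe sets, and no restored value. Software was pandas 2.3.3 and numpy 2.4.6 under Python 3.11.15, and matplotlib 3.10.9 for plots.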

Additional observations from a re-analysis of the deposited data

Results flagged for a closer look

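For 6 members the change against blood differed between FBR and in vitro activated cells, by the limma test of FBR vs in vitro activated. The shared blood arrays drop out of its log2 difference but still enter its estimate of the spread. The count was 6 of 50 members, while 25.6% of all genes were called in that comparison. Of the 6 members, 4 stood higher in FBR cells. The log2 difference was 1.52 for Rpl24 (0.67 in FBR vs blood and -0.85 in in vitro activated vs blood), 1.23 for Rpl14 (-0.32 and -1.54 in the same order), 1.26 for Rps13 (-1.71 and -2.97) and 1.29 for Rpl3l (-0.48 and -1.76). It was -1.22 for Rps27l (-0.10 and 1.12) and -1.14 for Rpl28 (-1.27 and -0.13), which stood lower in FBR cells. The 2 read from bright probe sets, Rpl14 and Rpl24, were lowest in in vitro activated cells, as were Rps13 and Rpl3l.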

How the results depend on the processing

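No direction of a called member was reversed in any alternative, and Rps13, Rps4y2, Rpl24 (FBR vs in vitro activated) and Rpl3l (in vitro activated vs blood) kept their calls in all that could be run for them. Scaling moved the family most. Median centring called 7 members for FBR vs blood (6 higher, 1 lower, median 0.46), against 34.3% of all genes (22.4% higher, 11.8% lower). It called 10 for FBR vs in vitro activated (10 higher, 0 lower, median 0.48), against 22.8% of all genes (14.1% higher, 8.67% lower). It shifted the median of all genes from -0.09 to 0.27 and from -0.23 to 0.11 in the same comparisons. Quantile normalization called 13 for in vitro activated vs blood (11 lower) and 8 for FBR vs blood (7 lower, median -0.39). It called 5 for FBR vs in vitro activated, 4 higher and 1 lower. Of all genes 28.5%, 32.3% and 22.8% were called under that scaling in the same order (11.8%, 14.8% and 12.6% lower). Quantile normalization put the summed signal of FBR minus blood at -1.52 percentage points, against -0.55. For in vitro activated minus blood it was -1.39, against -0.76. With a pseudocount of 64, 7 were lower for in vitro activated vs blood (14.2% of all genes). At that setting 7 were higher for FBR vs in vitro activated (10.7% of all genes). EBayes with trend and robust gave 7 lower for in vitro activated vs blood (13.7% of all genes). Fitting only probe sets with a mean signal of at least 1000 (39 members) gave 0 higher and 5 lower for in vitro activated vs blood. It gave 1 higher and 0 lower for FBR vs blood, and 5 higher and 0 lower for FBR vs in vitro activated. Of all genes in that fit 54.9%, 58.7% and 47.8% were called in the same order. Counting only those 39 members in the fit of all probe sets, chosen after seeing the data, gave 1 (0 higher, 1 lower) for in vitro activated vs blood, 0 (0 higher, 0 lower) for FBR vs blood and 2 (2 higher, 0 lower) for FBR vs in vitro activated. Without any restored value, 32 members remained and 1 (0 higher, 1 lower), 0 (0 higher, 0 lower) and 1 (0 higher, 1 lower) were called in the same order, and the share of all genes called was also lower (9.86%, 14.5% and 9.83%). Leaving out each array gave 4 to 7 calls for in vitro activated vs blood (1 to 3 higher, 3 to 5 lower), 3 to 4 for FBR vs blood (1 higher, 2 to 3 lower) and 3 to 8 for FBR vs in vitro activated (2 to 6 higher, 0 to 2 lower), with 3 calls without FBR 1, FBR 2 or FBR 3. Same-numbered arrays deviated from their group means with correlations of -0.16 to 0.16, so that replicate numbers were not taken to pair the arrays, and with a replicate block the counts stayed at 6 for in vitro activated vs blood (2 higher, 4 lower), 4 for FBR vs blood and 6 for FBR vs in vitro activated. For these changes the cause was not tested. Dim probe sets limit the reading of 11 members.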

Other observations

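The 36 probe sets that list several symbols, at least 1 of them ribosomal, were not read as any gene. Among them 0 were higher and 1 lower for FBR vs blood, 0 higher and 2 lower for in vitro activated vs blood, and 2 higher and 0 lower for FBR vs in vitro activated (33.8%, 27.5% and 25.6% of all genes called), with median log2 fold changes of 0.17, -0.03 and 0.18. A probe set listing Rpl37-ps5, Rpl37l1, Rpl37l2, Rpl37l3 and Rpl37l4 had mean signals of 182 in FBR, 189 in in vitro activated and 1429 in blood cells, with a log2 fold change of -2.74 in both comparisons with blood (adjusted p = 0.00077 for FBR vs blood and 0.0011 for in vitro activated vs blood). Another listing Rpl37-ps5, Rpl37l1 and Rpl37l4 had 20677, 19455 and 18006 in the same order and was not called, at 0.19 and 0.11. A probe set listing Rps10, Rps10l1 and Rpl30 was higher by 1.10 in FBR vs in vitro activated (adjusted p = 0.025), and one listing Rpl30 with its copies was at 0.45 (adjusted p = 0.22).

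Of the 30 such probe sets with a mean signal of at least 1000 and a value on all arrays, 28 were lowest on FBR 3 among FBR arrays (93.3%), 29 on in vitro activated 2 (96.7%) and 21 on blood 2 (70.0%). Of 21 ribosome biogenesis genes of that brightness the counts were 7, 6 and 9, of 26 mitochondrial ribosomal protein genes 14, 12 and 19, and of 12 products of TOP mRNAs 9, 7 and 6.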
